A study of Homo sapiens with 16 samples.

Results

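The genes described here are the chaperones, folding enzymes and degradation factors of the endoplasmic reticulum (ER) together with the sensors and transcription factors of its unfolded protein response. They were taken by symbol from a list of 43 genes, and 41 of the 43 were found among the 19898 genes measured. DERL3 and ATF6B are not analysed here. All 41 passed the filter on low values, so no member was lost to it, and the lowest mean in any group was 211 normalised reads (TXNDC5 in untreated 2D).

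RNA came from SH-SY5Y, an established human neuroblastoma line, differentiated over 15 days to dopamine-like neurons. Cells grew on flat culture dishes (2D) or in a scaffold of silk and collagen (3D). From day 13 the treated cultures received 1-methyl-4-phenylpyridinium (MPP) at 1 mM for 48 h, and the control cultures were left untreated. MPP is a toxin that is taken up by catecholamine cells and blocks complex I of the respiratory chain. The 4 groups were untreated 2D, MPP-treated 2D, untreated 3D and MPP-treated 3D, with 4 libraries each, so every group consists of the same line after the same differentiation. The design asks how the culture surroundings alter what MPP does to these cells. The 2D cells were detached with Accutase before freezing whereas the 3D scaffolds were frozen whole, so culture and handling cannot be told apart in any comparison of 3D with 2D. Whether the libraries within a group stem from separate cultures is not stated in the labels. The p-values therefore measure the spread between these libraries, which may be technical.

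Proteins that enter the ER are folded by the HSP70 chaperone BiP (HSPA5), by HSP90B1 and by the lectins calnexin and calreticulin, while protein disulfide isomerases form their disulfide bonds. Proteins that fail to fold are pulled back to the cytosol and destroyed, which is called ER-associated degradation. When unfolded proteins build up, the sensors IRE1 (ERN1), ATF6 and PERK (EIF2AK3) are released or activated. IRE1 splices the XBP1 mRNA, ATF6 is cut to a free transcription factor, and PERK slows translation while raising ATF4. ATF6 and spliced XBP1 then raise chaperone and degradation genes through promoter elements called ERSE, ERSE-II and UPRE. Gene counts do not show XBP1 splicing, ATF6 cleavage or sensor phosphorylation.

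Promoter sequences were examined because ERSE is the element through which the chaperones are known to be raised together. RefSeq windows of 300 bases on GRCh38.p14, from 250 bases before to 50 after each annotated start, were found for 39 of the 41 members; PDIA3 and DERL1 had none. ERSE was searched as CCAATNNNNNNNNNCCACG, ERSE-II as ATTGGNCCACG, the UPRE core as TGACGTGG and a C/EBP-ATF core as TGATGNAA, each on both strands. ERSE was present in 8 of 39 members, against 0.0769% of all 35116 windows. ERSE-II was present in 3 of 39 members, against 0.0541% of windows. A member counted if any of its windows matched, and 9 members had more than 1 window. Counted by gene, either element was in 11 of 39 members and in 44 of 27305 genes (0.161%). The UPRE core was found in 4 (HYOU1, DNAJC10, TXNDC5 and TXNDC11; 0.729% of windows) and the C/EBP-ATF core in 2 (HERPUD1 and CREB3L2; 3.62% of windows). The list contains many genes long known as ATF6 targets, so these shares describe the list and are not independent evidence. In HYOU1 the UPRE core overlaps 1 of its ERSE-II matches. Stretches are given for 8 of the 11 members with either element, namely the 5 with ERSE for which the effect of MPP differed between 3D and 2D in the interaction test given further on, and the 3 with ERSE-II. CANX, PDIA6 and ERO1B also carry ERSE. They are written 5′ to 3′ on the gene's own strand, upstream of its annotated start, with the ERSE or ERSE-II match in capitals and, where the match lies on the other strand, its reverse complement in capitals.
HSPA5 (ERSE, chr9:125241381-125241419, minus strand): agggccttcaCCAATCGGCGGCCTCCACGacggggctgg
HSP90B1 (2 ERSE, chr12:103930206-103930349, plus strand): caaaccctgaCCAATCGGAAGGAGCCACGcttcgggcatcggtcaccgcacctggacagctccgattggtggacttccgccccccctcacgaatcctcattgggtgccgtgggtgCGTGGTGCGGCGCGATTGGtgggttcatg
CALR (ERSE, chr19:12938374-12938412, plus strand): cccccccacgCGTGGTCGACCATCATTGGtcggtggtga
CRELD2 (ERSE, chr22:49918544-49918582, plus strand): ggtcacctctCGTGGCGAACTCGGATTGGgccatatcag
XBP1 (ERSE, chr22:28800593-28800631, minus strand): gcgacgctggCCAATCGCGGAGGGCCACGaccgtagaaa
HYOU1 (2 ERSE-II, chr11:119057264-119057400, minus strand): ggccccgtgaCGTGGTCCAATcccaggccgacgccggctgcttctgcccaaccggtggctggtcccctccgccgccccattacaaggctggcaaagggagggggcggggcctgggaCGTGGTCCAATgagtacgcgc
SDF2L1 (ERSE-II, chr22:21642104-21642134, plus strand): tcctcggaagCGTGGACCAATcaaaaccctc
HERPUD1 (ERSE-II, chr16:56932015-56932045, plus strand): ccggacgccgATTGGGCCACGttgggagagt

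Values below are normalised read counts, the reads of a gene divided by 1 size factor per library, given as single libraries in replicate order 1 to 4 or as mean ± SD (n = 4). They are not corrected for gene length, so levels are compared between libraries and not between genes. A log2 change is the difference of group means of log2(normalised count + 1), with its standard error (SE). Rose, fell and called refer to a limma adjusted p (Benjamini-Hochberg over the 16984 genes tested) under 0.05. Libraries held 24589435 to 46359070 reads. The share of reads from mitochondrially encoded mRNAs was 9.62% ± 1.65 in untreated 2D, 4.47% ± 1.61 in untreated 3D, 0.874% ± 0.0754 in MPP-treated 2D and 1.24% ± 0.207 in MPP-treated 3D. Of 16 markers of dopamine-like and noradrenergic cells, 15 were measured (SLC6A3 is not analysed here), with DBH and PHOX2A abundant in all libraries and NR4A2 near 0 (group means 2.95 to 7.70). Summed counts of MKI67 and TOP2A, 2 genes of dividing cells, were 13392 to 16181 in untreated 2D. They were lower in the other groups, at 4988 to 6273 in 2D with MPP, 6385 to 6947 in 3D untreated and 4308 to 7194 in 3D with MPP. The part of the mitochondrial share and of dividing cells in the results below was not tested. SOX10, PTPRC, PECAM1 and PRRX1, which mark glia, leukocytes, endothelium and mesenchyme, had group means of 5.05 or less, while the fibroblast markers PDGFRB and LUM were measured in all groups. In bulk RNA, fewer cells expressing a gene and less RNA per cell cannot be told apart.

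With MPP many ER folding genes fell in 2D dishes, and fewer did in 3D. HSPA5 fell by 1.03 on the log2 scale in 2D and by 0.24 in 3D. CALR fell by 0.82 in 2D and had a log2 change of 0.10 (limma adjusted p 0.204) in 3D. XBP1 and HERPUD1 went the other way and rose in 2D, by 0.67 and 0.81 on the log2 scale. Of the 41 members, 20 fell and 5 rose with MPP in 2D, where 16.9% of all genes tested fell and 17.7% rose. With MPP in 3D, 8 members fell and 10 rose, where 17.6% of all genes fell and 17.0% rose. The median log2 change over the members was -0.13 in 2D, against 0.02 over all genes, and close to 0 in 3D. The share of members that fell in 2D, 48.8%, was well above the background. In 3D 19.5% fell, close to the background, and 24.4% rose. All genes tested needed a value of 10 in only 4 libraries, whereas no member had a group mean under 211. The background here and below was not matched for expression level. Of the 20 that fell in 2D and the 8 that fell in 3D, 6 were shared, and 3 that fell in 2D rose in 3D. With libraries scaled to equal totals, the split was 15 lower and 11 higher in 2D and 5 lower and 15 higher in 3D. All genes then split into 1846 lower and 4362 higher in 2D and 2141 lower and 4151 higher in 3D, against 2868 and 2998 in 2D and 2997 and 2882 in 3D, and the median over all genes moved from 0.02 to 0.12 in 2D.

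Summed over the 41 members, the normalised count in 2D was 207385 to 224144 untreated and 164251 to 174827 with MPP. In 3D it was 244750 to 282921 untreated and 235471 to 271629 with MPP. All MPP-treated 2D libraries lay below all others, both 3D groups lay above untreated 2D, and the 2 groups in 3D overlapped. This sum is weighted towards the most abundant members. The median over members of each gene's log2 deviation from its mean over the 16 libraries counts members alike. It was -0.12 to -0.071 in untreated 2D and -0.34 to -0.20 in MPP-treated 2D. In 3D it was 0.049 to 0.20 untreated and 0.13 to 0.25 with MPP, so the order was the same. By group means, MPP-treated 2D was the lowest group for 26 of 41 members and the highest for 1, DNAJC10, whereas MPP-treated 3D was the highest for 19. The order of the groups was not counted over all genes, so these numbers have no background beside them.

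**Figure D1:**
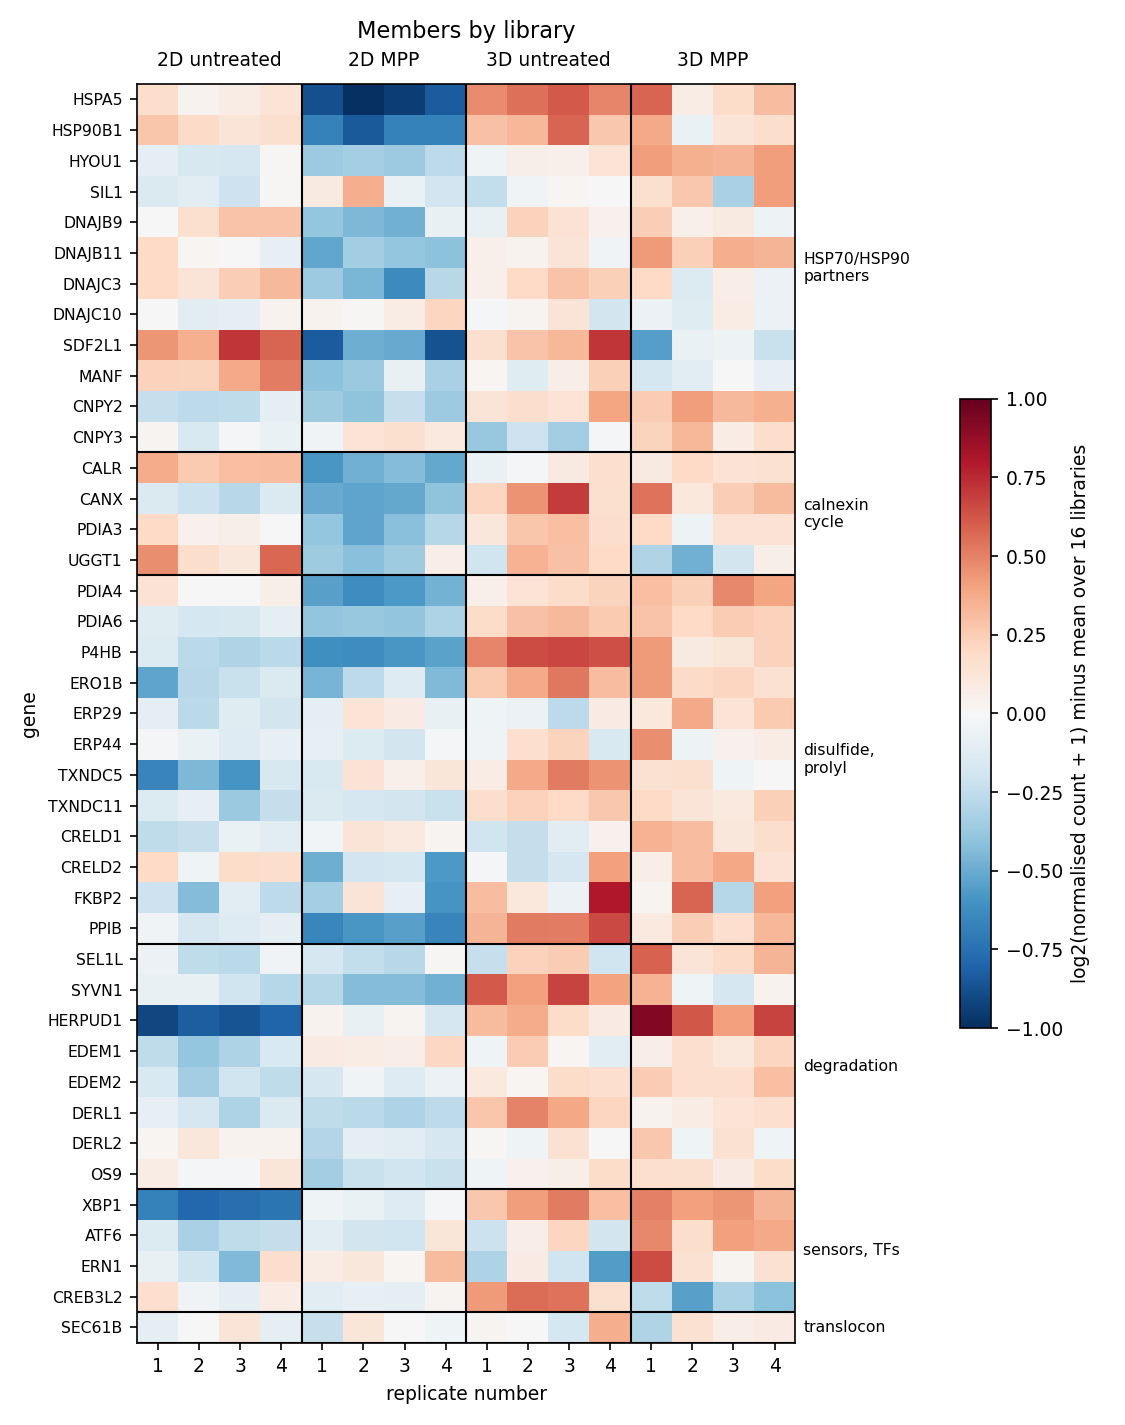
Each row is 1 of the 41 members, grouped by role, and each column is 1 of 16 libraries. Colour gives log2(normalised count + 1) minus the gene's mean over the 16 libraries, with values past -1 or 1 shown in the end colour. The chaperone rows HSPA5, HSP90B1 and CALR are blue in all 4 MPP-treated 2D libraries, while XBP1 and HERPUD1 are blue in the 4 untreated 2D libraries.

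Compared with 2D, more members were higher than lower in 3D. Among untreated cultures 18 members were higher, 2 lower and 21 not called in 3D, where 23.2% of all genes were higher and 23.0% lower. Among MPP-treated cultures 29 were higher, 1 lower and 11 not called, where 19.0% of all genes were higher and 19.9% lower. The median log2 difference over the members was 0.15 untreated and 0.45 with MPP, against 0.01 over all genes in both cases. The difference between the 2 MPP effects, tested as an interaction (the effect in 3D minus that in 2D), was above 0 for 13 members and below 0 for 3, where 7.00% of all genes were above and 8.32% below. Its median was 0.21 over the members and -0.02 over all genes. With equal totals of nuclear genes it was above 0 for 18 members and below 0 for 3, while over all genes 2128 were above and 1053 below, against 1189 and 1413. These comparisons share their groups of libraries and are not independent of each other.

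**Figure D2:**
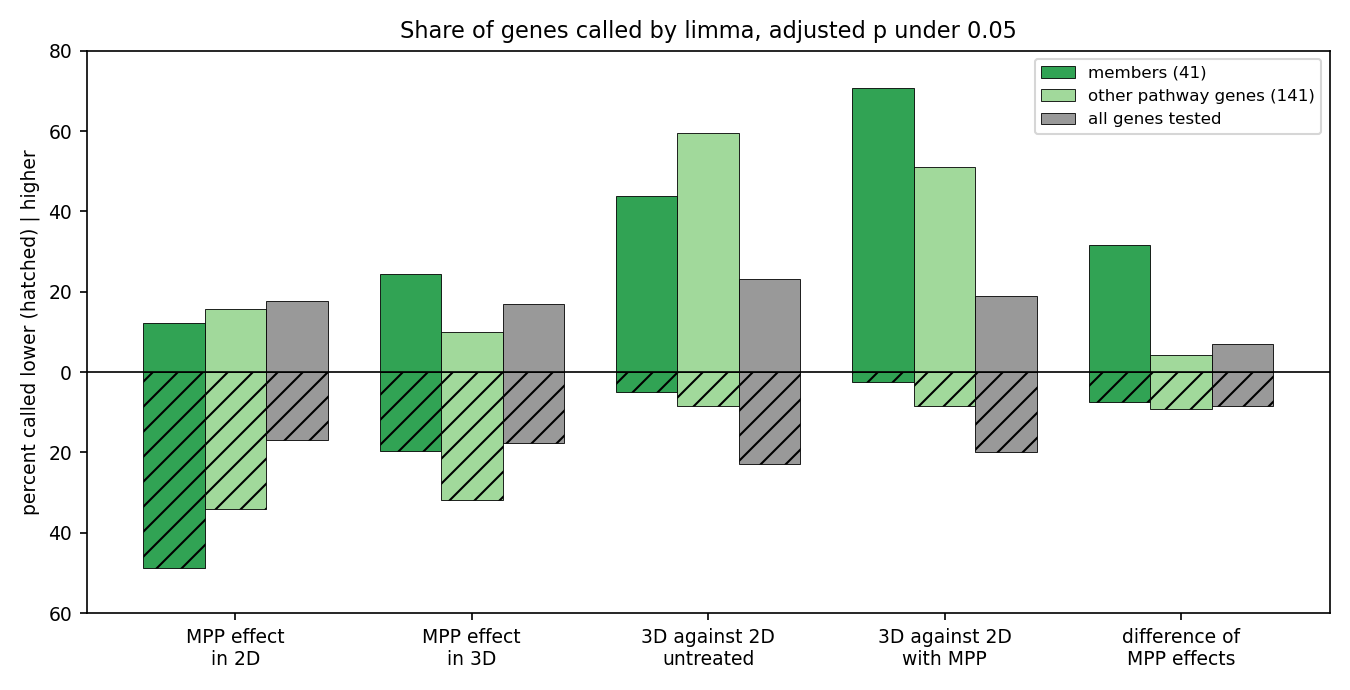
Bars give the percent of genes called by limma at an adjusted p under 0.05, higher above the line and lower (hatched) under it, for the 41 members, 141 other pathway genes and all 16984 genes tested in each of the 5 comparisons. The members differ most from all genes on the lower side for MPP in 2D, where 20 of 41 fell, and on the higher side for 3D with MPP, where 29 of 41 were higher.

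The chaperones of the HSP70 and HSP90 families and their partners mostly fell with MPP in 2D: 8 of 12 fell and none rose, with a median log2 change of -0.49. In 3D with MPP 2 of the 12 (16.7%) fell and 3 (25%) rose. Over all genes 16.9% fell and 17.7% rose in 2D, and 17.6% fell and 17.0% rose in 3D. The interaction was above 0 for 8 of the 12 and below 0 for none, the largest share of any role. Over all genes it was above 0 for 7.00% and below 0 for 8.32%. The members and lists were chosen with earlier results of these data known, so the shares by role describe the lists.

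HSPA5, the HSP70 chaperone that also holds the sensors inactive, stood at 14309, 13007, 13352 and 13918 in untreated 2D, at 6894, 6165, 6607 and 7141 in MPP-treated 2D, at 17568, 18583, 19437 and 17824 in untreated 3D and at 19019.8, 13395, 14446 and 15703 in MPP-treated 3D. All MPP-treated 2D libraries lay under all untreated 2D libraries, while in 3D MPP-treated replicate 1 lay among the untreated libraries and the other 3 lay below them. The log2 change with MPP was -1.03 (SE 0.082, limma adjusted p 3.16e-09) in 2D and -0.24 (SE 0.082, limma adjusted p 0.0258) in 3D. The interaction was 0.78 (SE 0.12, limma adjusted p 4.01e-05). In 3D the call was lost in 7 of 19 alternatives: without MPP-treated 3D replicate 2 (limma adjusted p 0.115) or 3 (0.0778), without untreated 3D replicate 2 (0.0540) or 3 (0.0635), with equal totals of all genes (0.154) or of nuclear genes (0.0657), and with the 2 groups fitted alone (0.0859). HSPA5 was higher in 3D than in 2D, by 0.43 (SE 0.082, limma adjusted p 0.0002) untreated and 1.21 (SE 0.082, limma adjusted p 9.80e-11) with MPP, with no overlap between the groups in either case.

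HSP90B1, the HSP90 of the ER, stood at 22963, 21642, 20720.4 and 21111 in untreated 2D, at 11889, 10577, 11855 and 11889 in MPP-treated 2D, at 23174, 23856, 28384 and 22893 in untreated 3D and at 24679, 18069, 20756 and 21453 in MPP-treated 3D. The 4 MPP-treated 2D libraries were far below the other 12, which overlapped each other across groups. It fell in 2D by 0.90 on the log2 scale (SE 0.083, limma adjusted p 3.02e-08). In 3D its log2 change of -0.21 (SE 0.083, limma adjusted p 0.0512) missed the threshold, and it passed in 7 of 19 alternatives, among them without MPP-treated 3D replicate 1 (0.00887) or untreated 3D replicate 1 (0.0435) or 4 (0.0365). The interaction was 0.69 (SE 0.12, limma adjusted p 0.000217).

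HYOU1, a large HSP70-like protein that exchanges nucleotide on BiP, stood at 11486, 10939.8, 10864 and 12349 in untreated 2D, at 9529, 9657, 9535 and 10223 in MPP-treated 2D, at 11861, 12736, 12659 and 13419 in untreated 3D and at 16353, 15682, 15531 and 16387 in MPP-treated 3D. Every MPP-treated library lay under every untreated one in 2D and above every untreated one in 3D. The log2 change was -0.23 (SE 0.059, limma adjusted p 0.00486) in 2D and 0.34 (SE 0.059, limma adjusted p 0.000126) in 3D, and the interaction was 0.56 (SE 0.084, limma adjusted p 4.12e-05). The fall in 2D was lost with equal library totals (limma adjusted p 0.105). HYOU1 was higher in 3D than in 2D with MPP, by 0.72 (SE 0.059, limma adjusted p 2.91e-09). Among untreated cultures the difference of 0.15 (limma adjusted p 0.041) was lost in 9 of 19 alternatives, at adjusted p of 0.0518 to 0.346, among them leaving out any of untreated 2D replicates 1, 2 and 3 or of untreated 3D replicates 2, 3 and 4.

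DNAJB11, a J-domain partner of BiP, stood at 3721, 3280.3, 3229 and 3068 in untreated 2D, at 2259.5, 2543, 2475 and 2444 in MPP-treated 2D, at 3352, 3320.5, 3553 and 3162 in untreated 3D and at 4358, 3825, 4179.9 and 4115 in MPP-treated 3D. Its MPP-treated libraries too lay under all untreated ones in 2D and above them in 3D, and the untreated groups overlapped. The log2 change was -0.45 (SE 0.07, limma adjusted p 3.47e-05) in 2D and 0.30 (SE 0.07, limma adjusted p 0.00199) in 3D, with an interaction of 0.75 (SE 0.099, limma adjusted p 9.50e-06). With MPP, DNAJB11 was higher in 3D than in 2D by 0.76 (SE 0.07, limma adjusted p 1.46e-08).

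Of the other partners, SDF2L1, a cofactor of the BiP cycle, had the largest fall of the 41 members in 2D, from 842 ± 93 to 367 ± 51.8 (log2 change -1.20, limma adjusted p 6.66e-07). In 3D it fell from 763 ± 132 to 504 ± 76.8 (log2 change -0.60, limma adjusted p 0.00172). Its interaction of 0.60 (limma adjusted p 0.0385) was lost when any of 11 libraries was left out, at adjusted p of 0.0502 to 0.0858. Untreated 2D replicate 2, untreated 3D replicate 4 and MPP-treated 2D replicates 2 and 3 were the libraries without which it was kept, along with MPP-treated 3D replicate 1. The J-domain proteins DNAJC3 and DNAJB9 and the secreted factor MANF fell in 2D, with log2 changes of -0.66 (limma adjusted p 7.85e-06), -0.53 (limma adjusted p 0.000529) and -0.63 (limma adjusted p 2.62e-05). In 3D none of the 3 passed the test: the log2 change was -0.18 (limma adjusted p 0.141) for DNAJC3 and -0.15 (limma adjusted p 0.256) for MANF, and DNAJB9 was 848 ± 76.7 untreated and 847 ± 74.7 with MPP. All 3 interactions were called (0.48, 0.53 and 0.49). MANF was 1 of the 2 members lower in untreated 3D than in untreated 2D (log2 difference -0.28, limma adjusted p 0.02), a call lost without untreated 2D replicate 4 (0.0835) or untreated 3D replicate 2 (0.0769). The reductase DNAJC10 and the BiP nucleotide exchange factor SIL1 were not called in any of the 5 comparisons, although SIL1 passed for MPP in 3D without MPP-treated 3D replicate 3 (0.0405). CNPY3, a partner of HSP90B1, rose with MPP in 3D (log2 change 0.44, limma adjusted p 0.000395), and CNPY2 was higher in 3D than in 2D, by 0.41 (limma adjusted p 0.000112) untreated and 0.68 (limma adjusted p 3.07e-07) with MPP.

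The calnexin cycle, in which lectins hold glycoproteins while they fold, fell with MPP in 2D in all 4 of its members. In 3D 1 of the 4, UGGT1, passed the test. Over all genes 16.9% fell in 2D and 17.6% in 3D. CALR, the soluble lectin calreticulin, stood at 17971, 16675, 17063 and 17205 in untreated 2D, at 9251, 9953, 10267 and 9708 in MPP-treated 2D, at 13236, 13796, 14729 and 15579 in untreated 3D and at 14749.7, 15937, 15329.8 and 15441 in MPP-treated 3D. The MPP-treated 2D libraries were lowest without overlap, the untreated 2D libraries were highest, and the 2 groups in 3D overlapped between them. MPP lowered CALR in 2D by 0.82 on the log2 scale (SE 0.061, limma adjusted p 1.03e-09), and the interaction of 0.92 (SE 0.086, limma adjusted p 8.33e-08) was the largest among the members. In untreated cultures CALR was lower in 3D (log2 difference -0.27, SE 0.061, limma adjusted p 0.00101), and with MPP it was higher in 3D (log2 difference 0.65, SE 0.061, limma adjusted p 1.83e-08).

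PDIA3, the disulfide isomerase that works with these lectins, fell in 2D from 14561 ± 864 to 10445 ± 725 (log2 change -0.48, limma adjusted p 1.67e-05) and was 16051 ± 1004 and 14904 ± 1096 in 3D (log2 change -0.11, limma adjusted p 0.25). Its interaction was 0.37 (limma adjusted p 0.0122). CANX, the membrane lectin calnexin, fell in 2D (log2 change -0.29, limma adjusted p 0.0251). That call was lost with equal library totals (0.134) and without untreated 2D replicate 1 (0.0625) or 4 (0.0621) or MPP-treated 2D replicate 1 (0.0559), 2 (0.0638) or 3 (0.0569). CANX was higher in 3D in untreated cultures (log2 difference 0.58, limma adjusted p 4.46e-05) and with MPP (log2 difference 0.79, limma adjusted p 1.24e-06). UGGT1, the glucosyltransferase that returns unfolded glycoproteins to the cycle, fell in 2D (log2 change -0.60, limma adjusted p 0.00115) and in 3D (log2 change -0.39, limma adjusted p 0.0247). In 3D that call was lost with equal library totals (0.0765) and without untreated 3D replicate 2 (0.0852) or 3 (0.0636) or MPP-treated 3D replicate 1 (0.0609) or 2 (0.0939). UGGT1 was the 1 member of the cycle that did not pass the test in 3D against 2D with MPP (log2 difference 0.04, limma adjusted p 0.843, interval -0.23 to 0.31).

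**Figure D3:**
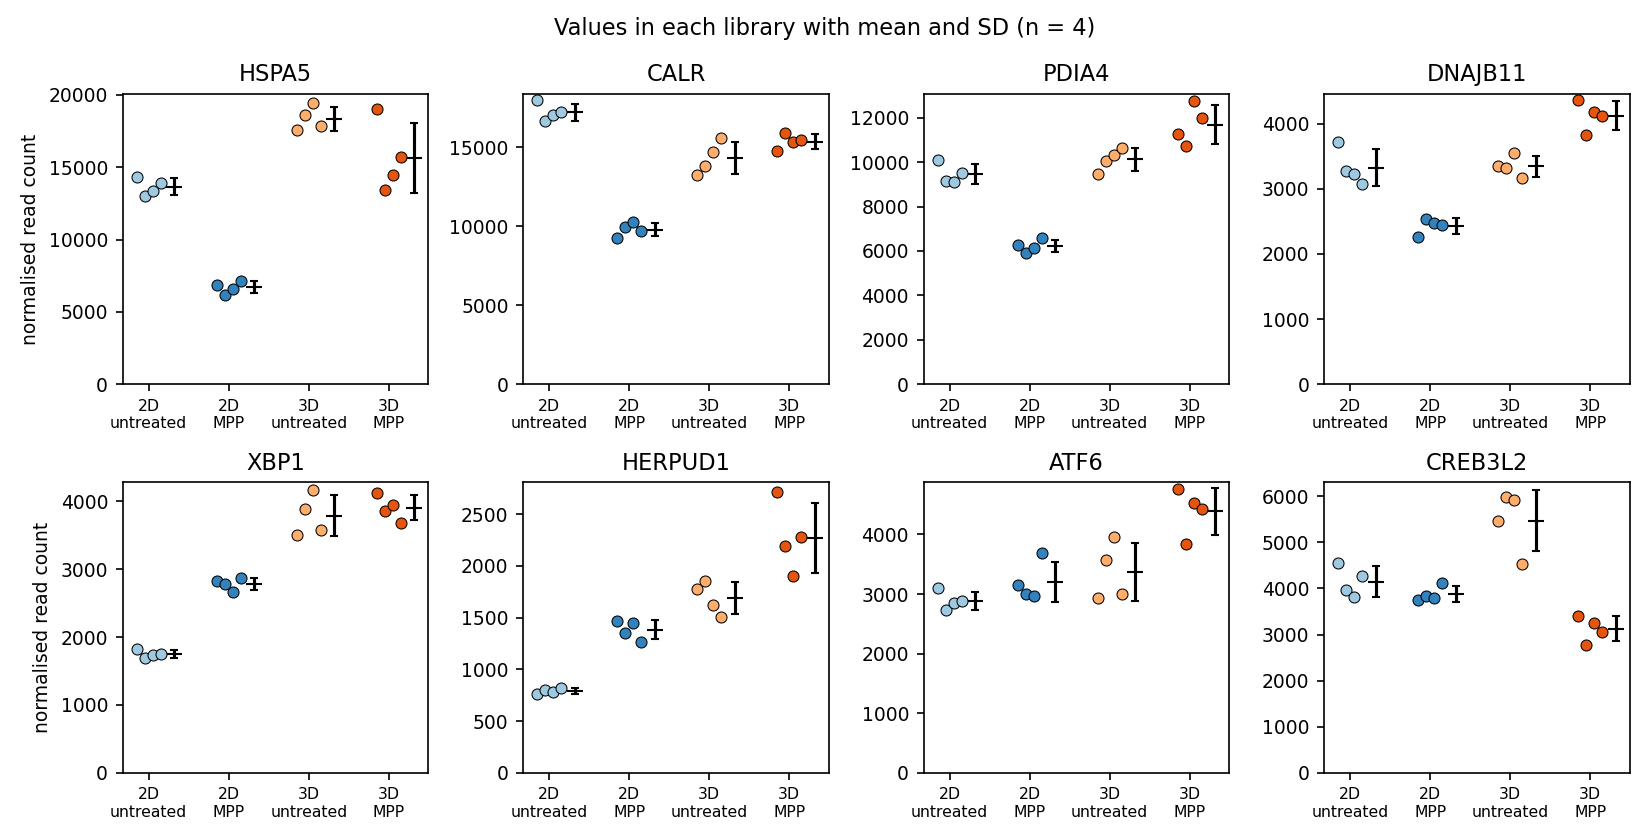
Normalised read counts of 8 members in each library (points), with mean and SD beside them (n = 4), for the 4 groups. HSPA5, CALR, PDIA4 and DNAJB11 are lowest in MPP-treated 2D, XBP1 and HERPUD1 are lowest in untreated 2D, and CREB3L2 is lowest in MPP-treated 3D.

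The list of disulfide and prolyl isomerases, which shape disulfide bonds and proline turns, has 12 members and is not limited to isomerases. It also holds the oxidase ERO1B. Of the 12, 5 (41.7%) fell and 2 (16.7%) rose with MPP in 2D. In 3D, 2 (16.7%) fell and 3 (25%) rose. Over all genes 16.9% fell and 17.7% rose in 2D, and 17.6% fell and 17.0% rose in 3D. In 3D against 2D, 7 of the 12 were higher untreated and 9 with MPP, where 23.2% and 19.0% of all genes were. PDIA4, a large disulfide isomerase, stood at 10085, 9159, 9094 and 9524 in untreated 2D, at 6252, 5927, 6136 and 6577 in MPP-treated 2D, at 9454, 10055, 10333 and 10629 in untreated 3D and at 11246, 10737, 12747 and 11969 in MPP-treated 3D. With MPP all 2D libraries lay under the untreated ones and all 3D libraries above them. The log2 change was -0.60 (SE 0.064, limma adjusted p 2.37e-07) in 2D and 0.20 (SE 0.064, limma adjusted p 0.0164) in 3D, with an interaction of 0.81 (SE 0.091, limma adjusted p 1.06e-06). The rise in 3D was lost without untreated 3D replicate 1 (0.0553) or MPP-treated 3D replicate 3 (0.0654), and with only the groups compared in the fit (0.0708). PDIA4 was higher in 3D than in 2D with MPP by 0.91 (SE 0.064, limma adjusted p 2.10e-10).

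P4HB, the classical protein disulfide isomerase, stood at 17333, 15858, 15512 and 15844 in untreated 2D, at 12489.7, 12425, 12714 and 13148 in MPP-treated 2D, at 26762, 29957, 30321 and 29887 in untreated 3D and at 25658, 20315, 20702 and 22387 in MPP-treated 3D. The 4 groups did not overlap: MPP lowered it in both cultures, and both 3D groups lay above both 2D groups. The log2 change with MPP was -0.35 (SE 0.07, limma adjusted p 0.000607) in 2D and -0.40 (SE 0.07, limma adjusted p 0.000138) in 3D. The interaction was -0.05 with an interval of -0.26 to 0.15 (limma adjusted p 0.785). P4HB was higher in untreated 3D by 0.86 (SE 0.07, limma adjusted p 1.62e-09).

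PPIB, an ER cyclophilin, stood at 3326, 3029, 3115 and 3188 in untreated 2D, at 2175, 2277, 2341 and 2155 in MPP-treated 2D, at 4311, 4883, 4871 and 5377 in untreated 3D and at 3651, 4052, 3829 and 4291 in MPP-treated 3D. It followed the order of P4HB, with no overlap between any 2 groups. It fell with MPP by 0.50 on the log2 scale in 2D (limma adjusted p 1.21e-05) and by 0.30 in 3D (0.0026). It was higher in 3D by 0.62 (limma adjusted p 3.26e-07) untreated and 0.82 (limma adjusted p 6.23e-09) with MPP.

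CRELD2, a disulfide isomerase known to be induced by ER stress, fell in 2D (log2 change -0.49, limma adjusted p 0.00444) and had a log2 change of 0.23 (limma adjusted p 0.17) in 3D, which passed the test without untreated 3D replicate 4 (0.0148). Its interaction was 0.72 (limma adjusted p 0.0071). TXNDC5, another disulfide isomerase, rose in 2D from 211 ± 33.7 to 299 ± 27.1 (log2 change 0.51, limma adjusted p 0.00693), had 373 ± 47.6 and 304 ± 21.7 in 3D (log2 change -0.29, limma adjusted p 0.116), and its interaction was -0.79 (limma adjusted p 0.00687). The change in 3D passed the test without untreated 3D replicate 1 (0.0462). TXNDC5 overlaps a read-through locus with its neighbour BLOC1S5, and the assignment of reads there was not given in the sources used here. PDIA6 fell in 2D (log2 change -0.23, limma adjusted p 0.00238), which was lost with equal library totals (0.0795), and was higher in 3D both untreated (log2 difference 0.41, limma adjusted p 2.28e-06) and with MPP (log2 difference 0.61, limma adjusted p 8.84e-09). The oxidase ERO1B, which recharges disulfide isomerases, was not called with MPP in either culture and was higher in 3D by 0.66 (limma adjusted p 1.91e-05) untreated. The thioredoxin-like TXNDC11 was likewise higher in 3D, by 0.43 (limma adjusted p 0.00018) untreated and 0.35 (limma adjusted p 0.00164) with MPP. The prolyl isomerase FKBP2 was higher in untreated 3D (log2 difference 0.54, limma adjusted p 0.0155), a call lost without untreated 2D replicate 2 (0.0502) or untreated 3D replicate 4 (0.0766). ERP29 rose with MPP in 3D (log2 change 0.29, limma adjusted p 0.00717), as did CRELD1 (log2 change 0.36, limma adjusted p 0.000789). CRELD1 also rose in 2D (log2 change 0.22, limma adjusted p 0.0293), which was lost without untreated 2D replicate 1 (0.0912) or 2 (0.0814), without MPP-treated 2D replicate 2 (0.0878) or 3 (0.0741), and with equal totals of nuclear genes (0.0785). The difference between 3D and 2D with MPP was at the edge of the threshold for ERP29 (log2 difference 0.21, limma adjusted p 0.0454) and ERP44 (log2 difference 0.24, limma adjusted p 0.0486). Each lost it in 8 alternatives, at 0.0508 to 0.160 and 0.0534 to 0.231. These included leaving out any of MPP-treated 2D replicates 1, 3 and 4 and MPP-treated 3D replicates 2 and 4 for ERP29, and any of MPP-treated 2D replicates 1, 2 and 3 and MPP-treated 3D replicates 1 and 4 for ERP44.

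The 8 members of ER-associated degradation were called in both directions with MPP. In 2D, 3 (37.5%) fell and 2 (25%) rose, where 16.9% of all genes fell and 17.7% rose. In 3D, 2 fell and 2 rose (25% each), where 17.6% of all genes fell and 17.0% rose. The interaction was called, above 0, for 1 of the 8, where 7.00% of all genes were above 0. In 3D against 2D, 5 of 8 were higher untreated and 7 of 8 with MPP, where 23.2% and 19.0% of all genes were. HERPUD1, a membrane protein that gathers the degradation complex, stood at 759, 804, 783 and 818 in untreated 2D, at 1464, 1356, 1452 and 1268 in MPP-treated 2D, at 1779.9, 1850.4, 1619.5 and 1511 in untreated 3D and at 2714, 2195, 1899 and 2281 in MPP-treated 3D. The untreated 2D libraries were lowest by a wide margin, and each of the 4 comparisons between groups separated all libraries. MPP raised it by 0.81 (SE 0.095, limma adjusted p 9.50e-07) in 2D and 0.42 (SE 0.095, limma adjusted p 0.00144) in 3D, and it was higher in 3D by 1.09 (SE 0.095, limma adjusted p 3.86e-09) untreated and 0.70 (SE 0.095, limma adjusted p 3.82e-06) with MPP. The interaction of -0.39 (limma adjusted p 0.0549) missed the threshold and passed it without MPP-treated 3D replicate 1 (0.00990), MPP-treated 2D replicate 4 (0.0417) or untreated 3D replicate 3 (0.0484) or 4 (0.0297).

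SYVN1, the ubiquitin ligase HRD1, stood at 3349, 3352, 3080.1 and 2901 in untreated 2D, at 2896, 2615, 2612 and 2528 in MPP-treated 2D, at 5418, 4694, 5646 and 4682 in untreated 3D and at 4491, 3439.9, 3143 and 3627 in MPP-treated 3D. The 4 MPP-treated 2D values were lowest and the 4 untreated 3D values highest, without overlap in any of the 4 comparisons. It fell with MPP in 3D (log2 change -0.48, SE 0.093, limma adjusted p 0.000314). Its fall in 2D (log2 change -0.25, SE 0.093, limma adjusted p 0.0398) was lost with equal library totals (0.216) and without untreated 2D replicate 1 (0.106), 2 (0.105) or 3 (0.0572) or MPP-treated 2D replicate 2 (0.0840), 3 (0.0832) or 4 (0.0915). SYVN1 was higher in 3D by 0.69 (limma adjusted p 2.78e-06) untreated and 0.45 (limma adjusted p 0.000483) with MPP.

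SEL1L, the partner of this ligase, rose with MPP in 3D (log2 change 0.30, limma adjusted p 0.0449), and 6 alternatives ended that call at adjusted p of 0.0646 to 0.176, among them leaving out untreated 3D replicate 1 or 4 or MPP-treated 3D replicate 1 or 4. EDEM1, a mannosidase-like protein that marks glycoproteins for degradation and a textbook XBP1 target, rose in 2D (log2 change 0.38, limma adjusted p 0.000477), and its paralog EDEM2 did not pass the test there (log2 change 0.14, limma adjusted p 0.154). The lectin OS9 fell in 2D (log2 change -0.29, limma adjusted p 0.000833), and its interaction was 0.38 (limma adjusted p 0.00375). DERL1, a membrane channel protein of this pathway, fell in 3D (log2 change -0.24, limma adjusted p 0.00882), a call lost with equal library totals (0.111). Its paralog DERL2 was at the threshold in 2D (log2 change -0.22, limma adjusted p 0.0481) and lost the call in 11 of 19 alternatives (0.0524 to 0.298), among them each of the 8 libraries of the comparison left out. With MPP, DERL2 was higher in 3D than in 2D (log2 difference 0.25, limma adjusted p 0.0207), which was lost without MPP-treated 2D replicate 1 (0.0794) or MPP-treated 3D replicate 1 (0.0814) or 3 (0.0531). DERL1, EDEM2, OS9 and SEL1L were also higher in 3D with MPP, by 0.38, 0.32, 0.40 and 0.48 on the log2 scale (limma adjusted p 0.000134, 0.00198, 2.18e-05 and 0.00162).

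Of the 4 sensors and transcription factors, 1 passed the test with MPP in 2D, XBP1, and in 3D ATF6 and ERN1 rose and CREB3L2 fell. XBP1, whose mRNA is the substrate of IRE1 and whose gene is itself a textbook ATF6 target with ERSE, stood at 1822, 1691, 1729 and 1751 in untreated 2D, at 2826, 2784, 2668 and 2874 in MPP-treated 2D, at 3507, 3892, 4163 and 3581 in untreated 3D and at 4129, 3863, 3951 and 3686 in MPP-treated 3D. The untreated 2D libraries were lowest, the MPP-treated 2D libraries were next, and the 2 groups in 3D overlapped at the top. XBP1 rose with MPP in 2D (log2 change 0.67, SE 0.066, limma adjusted p 8.07e-08) and had a log2 change of 0.05 (SE 0.066, limma adjusted p 0.615) in 3D. The interaction was -0.63 (SE 0.094, limma adjusted p 4.72e-05). XBP1 had the largest difference of the 41 members between untreated 3D and 2D, 1.11 (SE 0.066, limma adjusted p 7.13e-12), and was also higher in 3D with MPP (log2 difference 0.49, SE 0.066, limma adjusted p 4.73e-06).

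ATF6 stood at 3094, 2726, 2849 and 2888 in untreated 2D, at 3149, 3001, 2969.8 and 3695 in MPP-treated 2D, at 2935, 3566, 3960.4 and 2996 in untreated 3D and at 4755, 3839.8, 4534 and 4422 in MPP-treated 3D. In 3D the MPP-treated values were mostly above the untreated ones, with overlap from untreated replicate 3. It rose with MPP in 3D (log2 change 0.39, SE 0.094, limma adjusted p 0.00251) and had a log2 change of 0.14 (SE 0.094, limma adjusted p 0.246) in 2D. The interaction did not pass the test (interaction 0.24, limma adjusted p 0.238, interval -0.03 to 0.52). ATF6 was higher in 3D than in 2D with MPP by 0.45 (SE 0.094, limma adjusted p 0.000532).

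ERN1, which encodes IRE1, stood at 781, 715, 603 and 928 in untreated 2D, at 864, 887, 831 and 1023 in MPP-treated 2D, at 662, 870.0, 713 and 558 in untreated 3D and at 1292, 913, 834 and 910.2 in MPP-treated 3D. The groups overlapped in all comparisons, and MPP-treated 3D replicate 1 was the highest library. ERN1 rose with MPP in 3D (log2 change 0.49, SE 0.15, limma adjusted p 0.0116), but the call was lost without that library (log2 change 0.36, limma adjusted p 0.0598). In 2D the log2 change was 0.26 (SE 0.15, limma adjusted p 0.17), and the interaction was 0.23 with an interval of -0.20 to 0.66.

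CREB3L2, an ER-bound transcription factor related to ATF6, stood at 4551, 3961, 3809.7 and 4269 in untreated 2D, at 3748, 3840.4, 3792 and 4127 in MPP-treated 2D, at 5466, 5982, 5917 and 4534 in untreated 3D and at 3408, 2780.3, 3254 and 3051 in MPP-treated 3D. All MPP-treated 3D libraries lay below every other library, and the groups in 2D overlapped. It fell with MPP in 3D by 0.81 on the log2 scale (SE 0.085, limma adjusted p 1.84e-07), with -0.10 (SE 0.085, limma adjusted p 0.416) in 2D and an interaction of -0.71 (SE 0.12, limma adjusted p 0.000206). It was higher in 3D untreated (log2 difference 0.40, SE 0.085, limma adjusted p 0.000639) and lower in 3D with MPP (log2 difference -0.31, SE 0.085, limma adjusted p 0.00558), the 1 member lower there. SEC61B, a subunit of the channel through which proteins enter the ER, was not called in any comparison, with log2 differences of -0.06 to 0.07.

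**Figure D4:**
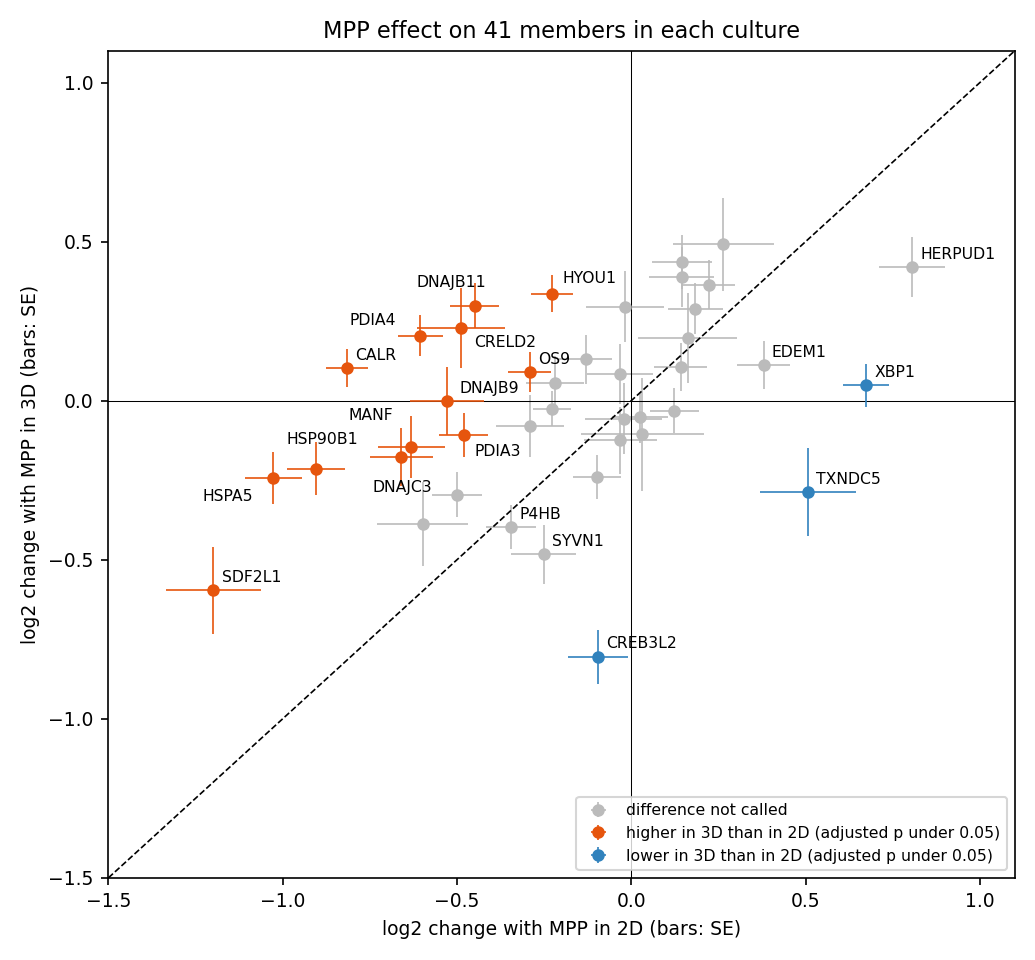
Each point is 1 of the 41 members, with its log2 change with MPP in 2D on the horizontal axis and in 3D on the vertical axis (bars are SE), and the dashed line marks equal effects. Orange points (13) have a called interaction above 0 and lie above the line, led by CALR, PDIA4, HSPA5 and DNAJB11, and blue points (3) have one below 0: XBP1, TXNDC5 and CREB3L2.

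Sorted by textbook regulator, the 11 ATF6 targets among the members held 8 that fell and 2 that rose with MPP in 2D, XBP1 and HERPUD1. In 3D 2 of the 11 fell and 4 rose, and the interaction was above 0 for 8 and below 0 for 1. With MPP, 10 of the 11 were higher in 3D. Of the 8 textbook XBP1 targets, 5 fell and 1 rose with MPP in 2D, and 1 fell and 1 rose in 3D. Over all genes 16.9% fell and 17.7% rose in 2D, and 17.6% fell and 17.0% rose in 3D. The interaction was above 0 for 7.00% of all genes and below 0 for 8.32%, and 19.0% were higher in 3D with MPP. Of the 11 ATF6 targets, 8 carry ERSE or ERSE-II, so a sorting by sequence largely recounts the same genes. Only exact matches of the letters were counted. Sorted by sequence, the 11 members with ERSE or ERSE-II in the window were all higher in 3D than in 2D with MPP. Of the 28 with neither, 16 were. With MPP in 2D, 8 of these 11 fell and 2 rose, against 11 and 3 of the 28. The median interaction was 0.56 for the 11 and 0.17 for the 28. HSPA5, CALR and XBP1 all carry ERSE in the stretches shown above, and with MPP in 2D HSPA5 and CALR fell while XBP1 rose. HYOU1, SDF2L1 and HERPUD1 all carry ERSE-II, and with MPP in 2D HYOU1 and SDF2L1 fell while HERPUD1 rose.

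The other genes of the pathway, 141 with values, come from lists of its remaining parts. MPP lowered 48 of them (34.0%) and raised 22 (15.6%) in 2D, where 16.9% of all genes fell and 17.7% rose. In 3D it lowered 45 (31.9%) and raised 14 (9.93%), where 17.6% of all genes fell and 17.0% rose. In 3D against 2D, 84 (59.6%) were higher and 12 (8.51%) lower untreated, where 23.2% of all genes were higher and 23.0% lower. With MPP 72 (51.1%) were higher and 12 (8.51%) lower, where 19.0% of all genes were higher and 19.9% lower. The interaction was above 0 for 6 (4.26%) and below 0 for 13 (9.22%), close to the shares over all genes of 7.00% and 8.32%.

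In the list of the PERK branch and of sensor processing, 7 of 15 genes (46.7%) rose with MPP in 2D and 4 (26.7%) fell. In 3D, 6 (40%) rose and 2 (13.3%) fell. Over all genes 17.7% rose and 16.9% fell in 2D, and 17.0% rose and 17.6% fell in 3D. ATF4, the transcription factor raised by PERK and by other kinases of the same stress pathway, rose from 3787 ± 186 to 7953 ± 190.1 in 2D (log2 change 1.07, limma adjusted p 9.66e-12) and was 9233 ± 521 and 10272 ± 464 in 3D (log2 change 0.15, limma adjusted p 0.0514). Its interaction was -0.92 (limma adjusted p 8.07e-08). DDIT3, the stress factor CHOP downstream of ATF4, rose from 435 ± 35.8 to 2505 ± 340.4 in 2D (log2 change 2.52, limma adjusted p 3.14e-13) and from 1555 ± 177 to 5576 ± 909 in 3D (log2 change 1.83, limma adjusted p 4.27e-11). CHAC1, a glutathione-degrading enzyme of the same branch, rose by 2.40 (limma adjusted p 1.68e-11) in 2D and 0.60 (limma adjusted p 0.00178) in 3D, and TRIB3, a pseudokinase of the branch, by 1.10 (limma adjusted p 3.25e-10) and 1.47 (limma adjusted p 1.19e-12). BBC3, which encodes the cell death protein PUMA, rose by 1.23 (limma adjusted p 5.07e-08) and 0.96 (limma adjusted p 1.56e-06). In untreated cultures ATF4, DDIT3 and CHAC1 were already higher in 3D, by 1.29, 1.83 and 2.93 on the log2 scale (limma adjusted p 9.25e-14, 2.03e-11 and 1.23e-13).

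EIF2AK3, which encodes PERK itself, fell with MPP in 3D from 1198 ± 92.1 to 744 ± 82.5 (log2 change -0.69, limma adjusted p 1.54e-05) and had a log2 change of 0.25 (limma adjusted p 0.0608) in 2D, with an interaction of -0.94 (limma adjusted p 5.57e-05). ERO1A, the main ER oxidase, fell in 3D from 6682 ± 1118 to 3564 ± 188 (log2 change -0.89, limma adjusted p 3.65e-08), was 2994 ± 77.8 and 2779.6 ± 50.7 in 2D (log2 change -0.11, limma adjusted p 0.354), and its interaction was -0.79 (limma adjusted p 5.82e-05). CREB3L1, the paralog of CREB3L2, was lower in 3D untreated (log2 difference -1.08, limma adjusted p 7.70e-06) and with MPP (log2 difference -0.87, limma adjusted p 0.000152).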

How the data were processed

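Poly-A selected RNA was sequenced in 16 libraries, 4 per group, with groups and replicate numbers taken from the sample titles. The deposited values are a signal, namely each gene's read count over a DESeq2 size factor, 1 for each library. The submitters' processing notes name build GRCh38.p13 and the tools CASAVA 1.8.2, FastQC, STAR, featureCounts and DESeq2. With settings, annotation and strand not given in the sources used here, reads of genes with near-identical copies, such as the HSP90B1 and PDIA3 pseudogenes, may be split or dropped.

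Whole reads were recovered (100.0% of values within 0.01 reads of a whole number), giving 24589435 to 46359070 reads per library. Same-group libraries all differed by more than sampling noise (chi-square per degree of freedom 6.07 or more over 24 pairs). All 16 libraries entered 1 limma 3.58.1 fit (R 4.3.3) of log2(value + 1), with a trended prior variance, over the 16984 genes that reached 10 in 4 or more libraries. A Benjamini-Hochberg adjusted p under 0.05 counted as a call. The pseudocount of 1 understates fold changes of low genes. Of the gene names, 19827 matched RefSeq (GRCh38.p14), the 41 members among them. The scripts were tested on simulated data.

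Alternatives were equal library totals, equal totals of nuclear genes, pseudocounts of 0.5 and 5, testing without a filter or at means of at least 50, robust empirical Bayes, fitting only the groups compared, a replicate block, edgeR 4.0.16 and DESeq2 1.42.0 on the recovered reads, and each library left out. The members and lists were chosen with earlier results of these data known. Values in every library are given for the 4 members of smallest adjusted p in each comparison and for HSPA5 and the sensors. Of the other pathway genes, at most the 3 highest and 3 lowest called genes per comparison and EIF2AK3, ATF4, DDIT3 and ERO1A are named.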

Additional observations from a re-analysis of the deposited data

Results flagged for a closer look

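In 6 of 164 tests of a member within a group of 4 libraries, 1 library stood apart by Dixon's criterion. Chance alone gives about 1 in 20. HSP90B1 was low in MPP-treated 2D replicate 2 (10577). P4HB was low in untreated 3D replicate 1 (26762). CRELD2 was low in untreated 2D replicate 2 (1016). CNPY2 was high in untreated 2D replicate 4 (1659.7). EDEM1 and UGGT1 were high in MPP-treated 2D replicate 4 (4544 and 6492).

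The effect of MPP differed between 3D and 2D for 16 members by limma's test of the interaction. The log2 difference was above 0 for CALR (0.92), PDIA4 (0.81), HSPA5 (0.78), DNAJB11 (0.75), CRELD2 (0.72), HSP90B1 (0.69), SDF2L1 (0.60), HYOU1 (0.56), DNAJB9 (0.53), MANF (0.49), DNAJC3 (0.48), OS9 (0.38) and PDIA3 (0.37). It was below 0 for TXNDC5 (-0.79), CREB3L2 (-0.71) and XBP1 (-0.63).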

How the results depend on the processing

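The number of members called stayed within 1.5 times its main value under every alternative, in all 5 comparisons, and the number of all genes called did too. This holds for the totals of both directions together. The numbers higher and lower moved further in some cases, such as with equal library totals for MPP in 2D and 3D, given above. Over 205 pairs of a member and a comparison, the alternatives gave 4182 values. Of these, 4035 kept their side of the threshold, 97 lost the call, 50 gained one and none changed direction after being called. Sign was not compared where neither fit made a call, and there it could change. CANX for MPP in 3D, for example, ranged from -0.16 to 0.026 on the log2 scale. In 159 pairs no alternative altered the call. Leaving out 1 library gave 21 to 23 members called for MPP in 2D (25 with all libraries), 16 to 20 for MPP in 3D (18), 18 to 21 for 3D untreated (20), 27 to 31 for 3D with MPP (30) and 15 to 20 for the interaction (16). Equal totals of nuclear genes gave 21 interactions called in members and 2128 genes above 0 among all genes, against 1189. With the groups fitted alone, all genes called for MPP in 2D and 3D came to 7233 and 4498, against 5866 and 5879.

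No pairing by replicate number was detected: deviations of same-numbered libraries correlated at -0.11 to 0.090 over 24 pairs of libraries, none above 0.1. Such correlations cannot show whether same-numbered libraries were grown or prepared together. With the replicate block, 24, 18, 20, 28 and 16 members were called in the 5 comparisons in the order above, and 5675, 5706, 7634, 6451 and 2436 of all genes.

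The chief limits are 4 libraries per group of 1 cell line, unknown independence of the libraries, different harvesting of 2D and 3D cells, and RNA levels alone, without protein or splicing. Single libraries whose removal ended a member's call are given beside that call. Removal of 1 library also brought calls not given there. Without untreated 3D replicate 4 these were CNPY2 for MPP in 3D (0.0497), the interactions of CNPY2 (0.0325), CNPY3 (0.0294) and EDEM1 (0.0458), and CNPY3 (0.0147) and ATF6 (0.0336) for 3D untreated. ATF6 also passed without untreated 3D replicate 1 (0.0270), and the interaction of PDIA6 without untreated 3D replicate 3 (0.04995). For 3D with MPP these were FKBP2 (0.0152) and CRELD1 (0.0382) without MPP-treated 3D replicate 3, FKBP2 (0.0325) without MPP-treated 2D replicate 2 and MANF (0.0345) without MPP-treated 2D replicate 3. All are limma adjusted p-values. No interval covers more than the spread between these libraries.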

Other observations

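The lists around the folding machinery differed in how many of their genes were higher in 3D, where 23.2% of all genes tested were higher untreated and 19.0% with MPP. Of 28 genes of traffic from the ER to the Golgi, 23 were higher and none lower in untreated 3D, with a median log2 difference of 0.46, and 17 were higher and 1 lower with MPP, which was SEC24D, a coat protein of the export vesicle (log2 difference -0.74, limma adjusted p 8.61e-06). Of 20 genes of N-glycosylation and glucosidases, 15 were higher and 2 lower in untreated 3D, and 13 were higher and 2 lower with MPP. Of 25 genes of the translocon, signal peptidase and targeting, 14 were higher and none lower untreated, and 15 were higher and none lower with MPP, led by SRPRA, the receptor of the signal recognition particle (log2 difference 0.96, limma adjusted p 1.11e-08). Of 28 other disulfide and proline enzymes, 13 were higher and 3 lower untreated, and 13 were higher and 1 lower with MPP. Of 25 other genes of ER-associated degradation, 10 were higher and 2 lower untreated (median log2 difference 0.08), and 8 were higher and 4 lower with MPP (median 0.05). Of the 15 genes of the PERK branch and sensor processing, 9 were higher and 5 lower untreated, and 6 were higher and 4 lower with MPP.

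With MPP in 2D, 11 of the 25 genes of the translocon, signal peptidase and targeting fell, where 16.9% of all genes did, among them SRP9 of the signal recognition particle (log2 change -0.63, limma adjusted p 1.82e-07) and SPCS2 of the signal peptidase (log2 change -0.57, limma adjusted p 1.61e-05). In 3D 9 of the 25 fell, where 17.6% of all genes did, with SRP9 among them (log2 change -0.41, limma adjusted p 4.68e-05).

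Among the other degradation genes, NGLY1, the enzyme that strips sugar chains from retrieved glycoproteins, was 858 ± 87.5 in untreated 2D, 973 ± 43.7 in MPP-treated 2D, 1990.0 ± 348 in untreated 3D and 740.1 ± 74.8 in MPP-treated 3D. It fell with MPP in 3D (log2 change -1.42, limma adjusted p 1.00e-09), with an interaction of -1.60 (limma adjusted p 1.15e-07). DNAJB12, a J-domain protein of the ER membrane, fell with MPP in 2D (log2 change -0.53, limma adjusted p 0.000488) and in 3D (log2 change -0.35, limma adjusted p 0.0142). Among the other disulfide and proline enzymes, TMX4 and FKBP7 had interactions above 0, of 0.60 (limma adjusted p 0.0027) and 0.46 (limma adjusted p 0.0186), as had the oligosaccharyltransferase subunit STT3B (interaction 0.37, limma adjusted p 0.0334), and PDIA2 had one below 0 (interaction -1.35, limma adjusted p 0.0318). SEL1L3 was lower in 3D than in 2D with MPP (log2 difference -1.23, limma adjusted p 7.53e-12).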
